A study of Arabidopsis thaliana with 6 samples.

Results

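Regions whose centre lay in the 5′ untranslated region (5′ UTR) of an annotated transcript were examined for binding of SOC1-GFP in Arabidopsis thaliana shoot apices. The deposited table of chromatin immunoprecipitation sequencing (ChIP-seq) regions listed 24032 candidates, and the 1623 (6.75%) whose annotation at the centre contained a 5′ UTR were taken. The rule uses the annotation at the centre and no read count. They lay in the 5′ UTRs of 1617 genes, of which 12 held 2 regions. At 1500 regions a 5′ UTR was the only annotation at the centre, and the other 123 also lay in an intron, exon or UTR of another transcript.

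The tagged plants expressed SOC1 with GFP from a genomic transgene (gSOC1-GFP, line 7), and the control plants had the equivalent transgene lacking the tag (untagged gSOC1, line 9). In both lines SOC1p drove the transgene and the endogenous gene was mutant (soc1-2), and each group was thus a single transgenic line. Both were grown for 15 short days followed by 3 long days, apices were collected at zeitgeber time 4, and an anti-GFP antibody was used on both. Each group had 3 libraries, numbered 1 to 3, and nothing in the labels says that they came from separate plants. The p-values of the tests made here over these libraries therefore measure the spread between them, which may be technical.

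SOC1 is a MADS-domain transcription factor that integrates photoperiod, temperature and gibberellin signals and promotes the floral transition at the shoot apex. MADS-domain proteins bind DNA as dimers or higher-order complexes at CArG boxes. The 5′ UTR is the transcribed stretch between the start of transcription and the start codon, so a region centred there lies just downstream of the core promoter. ChIP fragments are longer than the bound site, and a region centred in a 5′ UTR can include part of the promoter.

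Depth differed between the libraries. Listed regions held 183668 to 663108 reads in the gSOC1-GFP libraries and 41073 to 396326 in the untagged libraries, replicate 1 being the deepest in both. A median 5′ UTR region held 13, 5 and 9 reads in gSOC1-GFP replicates 1, 2 and 3, and 6, 1 and 2 in the untagged replicates. The untagged count was 0 at 36, 468 and 219 of the 1623 regions in replicates 1, 2 and 3, and a single region was therefore measured coarsely in the control.

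As a class, 5′ UTR regions took a part of the reads whose difference between gSOC1-GFP chromatin and the control was smaller than the spread between replicates. They held 4.73%, 6.30% and 6.67% of the listed reads in gSOC1-GFP replicates 1, 2 and 3, against 3.66%, 6.37% and 7.31% in the untagged replicates. The groups overlapped, and replicate 1 was the lowest of its group in both. The means were 5.90% ± 1.03 in gSOC1-GFP and 5.78% ± 1.90 in untagged gSOC1 (SD, n = 3 each), a difference of 0.122 percentage points (exact two-sided permutation p = 0.9, where 3 against 3 libraries cannot go below 0.1). Pair by pair the difference was 1.07, -0.0697 and -0.637 percentage points. Without the untagged library of replicate 1 it was -0.940, and without gSOC1-GFP replicate 2 or 3 it was -0.0804 or -0.263, so its sign rested on single libraries.

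**Figure D1:**
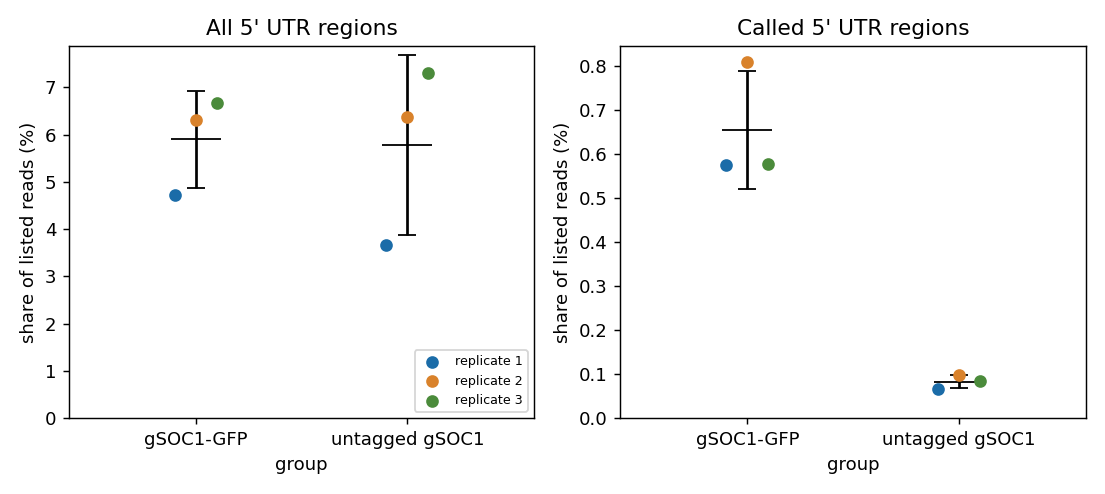
Share of all listed reads (%, vertical axis) in the 1623 5′ UTR regions (left) and in the 17 called ones (right), per library of gSOC1-GFP and untagged gSOC1; points are replicates, horizontal marks the mean and bars the SD of 3 libraries. The groups overlap over all 5′ UTR regions, while the called regions, which were chosen on these reads, lie between 0.575% and 0.808% in gSOC1-GFP and between 0.0671% and 0.0974% in untagged gSOC1.

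Enrichment was taken as the log2 ratio of gSOC1-GFP to untagged reads in libraries of the same number, each scaled to its listed total, with a prior count of 1, itself scaled by the library's total. The median 5′ UTR region had a log2 enrichment of 0.34, 0.14 and -0.068 in pairs 1, 2 and 3, a mean of 0.14 ± 0.20 (SD, n = 3 pairs; exact two-sided sign-flip p = 0.5, where 3 pairs cannot go below 0.25). The medians of all other regions were 0.30, 0.14 and 0.16. The difference, 5′ UTR minus other regions, averaged -0.062 ± 0.14 (exact sign-flip p = 1), and it was 0.019 without replicate 3. Across the 1623 regions, which are not independent replicates and whose low counts limit any correlation, Spearman's rho of the enrichment was -0.0601 between pairs 1 and 2, -0.0875 between pairs 1 and 3 and -0.135 between pairs 2 and 3.

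Against single classes of annotation, 5′ UTR regions had lower medians than introns in each pair. Regions whose centre lay in an intron had medians of 0.60, 0.37 and 0.21, and the 5′ UTR class lay below them by 0.27, 0.23 and 0.28 on the log2 scale (mean difference -0.26 ± 0.02, SD, n = 3 pairs; exact sign-flip p = 0.25, the smallest possible). Medians below those of introns in each pair were not particular to 5′ UTRs. Regions in 3′ UTRs (0.36, 0.0084 and 0.20) and up to 1 kb upstream of a gene (0.16, 0.14 and 0.077) had them too. Coding exons did in pairs 1 and 2 (0.40 and 0.14) but not in pair 3 (0.39). The medians move in steps of whole reads. In pair 2, 0.14 is the value of 5 gSOC1-GFP reads against 1 untagged read, and 0.37 that of 6 against 1. The small SD therefore does not show how finely the difference was measured. Against coding exons the difference averaged -0.17 ± 0.25 (exact sign-flip p = 0.5) and against 3′ UTRs -0.051 ± 0.20 (exact sign-flip p = 0.75). Regions outside genes and up to 1 kb upstream of one, the nearest neighbours of a 5′ UTR, had a median that the 5′ UTR class exceeded by 0.012 ± 0.16 (exact sign-flip p = 1). Intron regions were shallower, with a median of 25 reads over the 6 libraries against 37 in 5′ UTRs, and the part of depth in these differences was not tested.

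The authors' false discovery rate (FDR), given for each replicate, was below 0.05 in all 3 replicates at 17 regions, referred to as called. Each FDR compares gSOC1-GFP with untagged gSOC1 within 1 replicate and does not measure the spread between replicates. That is 1.05% of the 5′ UTR regions, beside 1.12% of all listed regions, so the class carried called regions at about the rate of the whole table. Singly, 150, 37 and 39 of the 1623 passed in replicates 1, 2 and 3 (9.24%, 2.28% and 2.40%), beside 10.1%, 2.86% and 3.16% of all regions. Of the 141 that passed in 1 replicate, 118 did so in replicate 1, the deepest. Called shares in the other classes were 0.247% of coding exon regions (6 of 2433), 0.963% of intron regions (16 of 1661), 0.874% of 3′ UTR regions (12 of 1373) and 1.23% of regions up to 1 kb upstream (126 of 10235); differences between these shares were not tested.

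**Figure D2:**
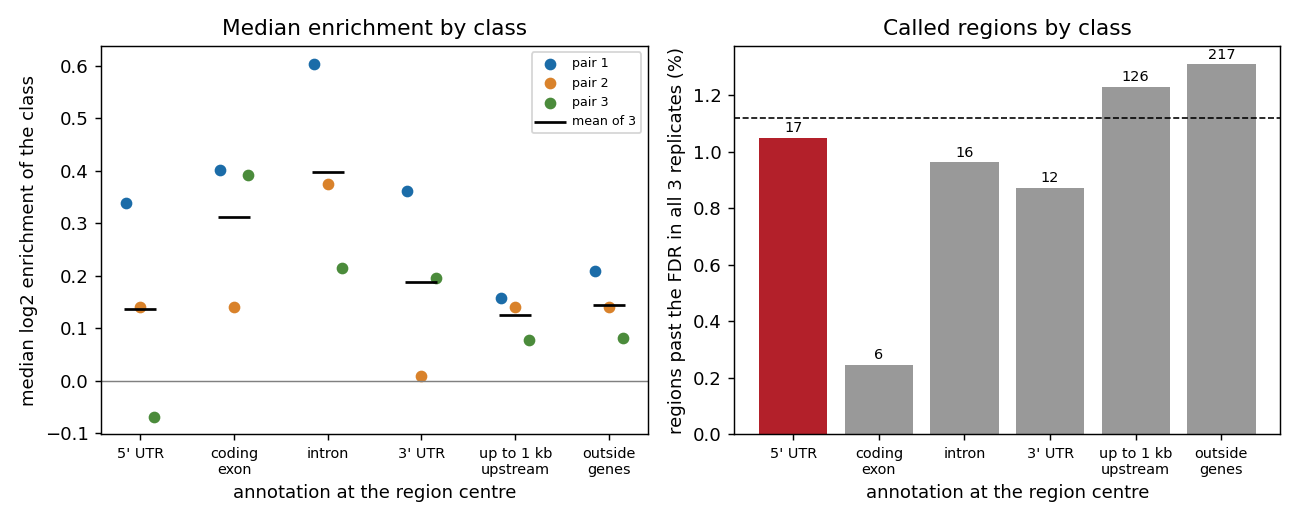
Left, median log2 enrichment (vertical axis) of the regions in each class of annotation at the centre, for the 3 replicate pairs (points) and their mean (bar). Right, percent of regions past the authors' FDR in all 3 replicates with the number of regions above each bar; the dashed line is the share of all listed regions, 1.12%, and 5′ UTRs stand at 1.05%.

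The 17 called regions belonged to 17 genes on all 5 chromosomes, with 1, 3, 6, 4 and 3 on chromosomes 1 to 5. In each of them a 5′ UTR was the only annotation at the centre. They were 240 to 495 bp long (median 362, against 208 for all 5′ UTR regions) and held 95 to 1710 reads. Scaled to listed totals, every gSOC1-GFP library stood above every untagged library at 15 of the 17, and the groups overlapped at VEL1 and AT3G13190. The FDR had chosen the 17 on these same reads, so their separation is no independent support. Over all 5′ UTR regions every gSOC1-GFP library stood above every untagged library at 89, or 5.48%, beside 8.34% of the whole table. Mean log2 enrichment ran from 0.84 to 4.88 with a median of 3.13, against 2.39 for all 270 called regions; the FDR had chosen both sets on these reads.

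**Figure D3:**
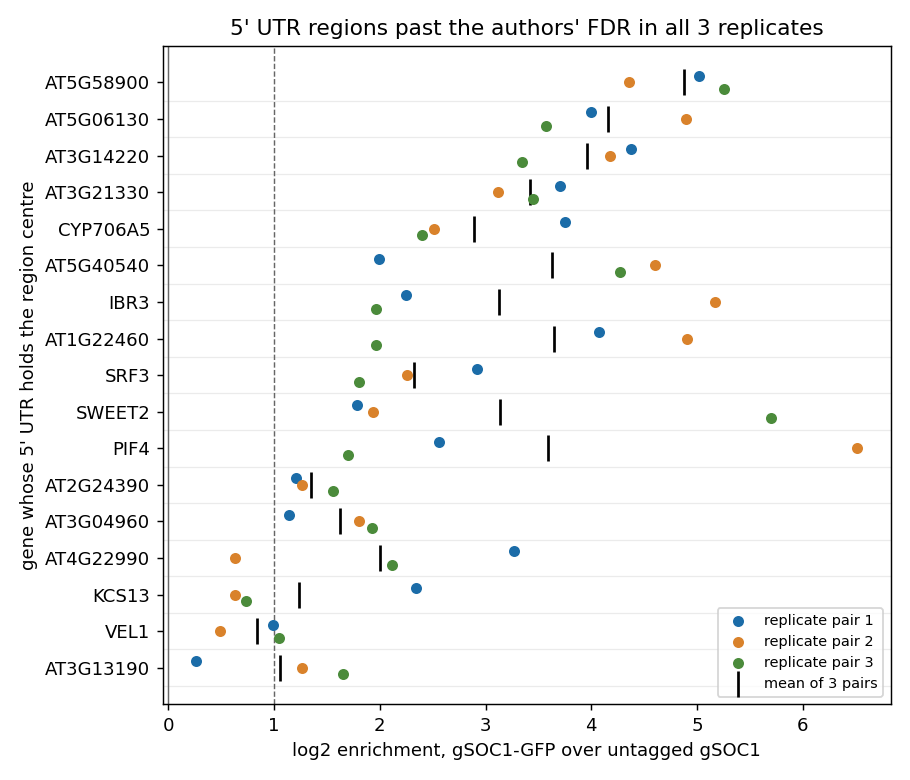
Log2 enrichment of gSOC1-GFP over untagged gSOC1 (horizontal axis) in the 17 called 5′ UTR regions, ordered from the top by their lowest pair; points are the 3 replicate pairs and the bar their mean, and the dashed line marks 2-fold. The 4 top regions exceed 3 on the log2 scale in every pair, while VEL1, KCS13, AT4G22990 and AT3G13190 fall below 1 in at least 1 pair.

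The 5′ UTR with the highest mean enrichment, and the highest lowest pair, was that of AT5G58900, a protein-coding gene with no symbol in the tables used. Its region on chromosome 5, chr5:23785097-23785460 in TAIR10 and rank 3 of the authors' list, held 947, 380 and 361 reads in gSOC1-GFP replicates 1, 2 and 3, against 16, 4 and 2 in the untagged replicates. All 3 gSOC1-GFP libraries were far above the controls, with log2 enrichments of 5.02, 4.36 and 5.26, a mean of 4.88 ± 0.47 (SD, n = 3) or 29.4-fold. It led the class in pair 1, while PIF4 was highest in pair 2 (6.52) and SWEET2 in pair 3 (5.70), both over an untagged count of 0. It was the single 5′ UTR region that edgeR's quasi-likelihood test called without a replicate block (adjusted p = 0.0321), where 18 regions or 0.0749% of the table passed. That call was lost when any gSOC1-GFP library or the untagged library of replicate 2 or 3 was left out. Each of these gave 0 called 5′ UTR regions, and 24 to 81 had an unadjusted p under 0.05, beside 452 to 1387 of all regions. Without the untagged library of replicate 1 the number called was 4 (53 of all regions). With the replicate number as a block it was 14 (211 of all regions).

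AT5G06130 had the next highest lowest pair. The region chr5:1855705-1856068 held 599, 286 and 262 reads in gSOC1-GFP against 21, 2 and 5 in untagged gSOC1, a mean log2 enrichment of 4.15 ± 0.68 (SD, n = 3). The table listed only its second transcript model at the centre, and SNX1, a sorting nexin gene read in the same direction, lay 121 bp from the centre on the 5′ side. At AT3G14220, chr3:4732842-4733199, the counts were 500, 173 and 181 in gSOC1-GFP against 13, 2 and 4 in untagged gSOC1 (3.96 ± 0.55). AT3G21330, chr3:7507256-7507610, had fewer reads, 139, 44 and 56 in gSOC1-GFP against 5, 1 and 1 in untagged gSOC1, and the most even enrichment of these 4 (3.42 ± 0.30). The values of AT3G21330 in pairs 2 and 3 rest on 1 untagged read each, and its mean was 2.23 with a prior count of 10. With the prior count of 1 these 4 regions exceeded 8-fold in each pair. With a replicate block edgeR's quasi-likelihood test gave them Benjamini-Hochberg adjusted p from 4.01e-10 to 3.91e-06. Without the block the 16 called regions other than AT5G58900 had adjusted p from 0.0627 to 1 in the same test.

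Of the genes on the flowering, light, hormone and cold lists, PIF4 was the one with a called 5′ UTR region. PIF4 is a basic helix-loop-helix factor that interacts with phytochromes and promotes elongation growth and, at warm temperature, flowering. Its region, chr2:17886299-17886793, lay in the 5′ UTR of both listed transcripts and held 180, 62 and 85 reads in gSOC1-GFP against 17, 0 and 6 in untagged gSOC1. The log2 enrichments of 2.56, 6.52 and 1.70 averaged 3.59 ± 2.57 (SD, n = 3), and the middle value rests on an untagged count of 0. With that count set to a floor of 3 reads in the library, pair 2 was at least 4.62-fold enriched, and without replicate 2 the mean log2 enrichment was 2.13. edgeR gave a log2 fold change of 2.63 with the block (adjusted p = 0.000396) and an adjusted p of 0.557 without it.

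VEL1, a relative of the vernalization protein VIN3 that acts with Polycomb silencing, is on none of those lists and had the lowest mean among the called regions. Its region chr4:14790183-14790595 covered the 5′ UTR of 4 transcripts and held 59, 38 and 36 reads in gSOC1-GFP against 17, 6 and 4 in untagged gSOC1. The mean log2 enrichment was 0.84 ± 0.30 (SD, n = 3), or 1.79-fold, and after scaling untagged replicate 2 stood above gSOC1-GFP replicates 1 and 3. edgeR did not call it with the block (adjusted p = 1) or without it (adjusted p = 1).

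SVP, a MADS-domain repressor of flowering, had a 5′ UTR region that passed the FDR in replicates 1 and 2 but not in replicate 3. The region chr2:9579979-9580275 held 75, 26 and 23 reads in gSOC1-GFP against 9, 1 and 5 in untagged gSOC1. Its log2 enrichment was 2.14, 2.37 and 0.11, a mean of 1.54 ± 1.24 (SD, n = 3), with an authors' FDR of 0.242 in replicate 3 (edgeR adjusted p = 0.465 with the block and 1 without). SPL10, a target of miR156 that promotes phase change, passed in replicate 1 alone (FDR 0.0116), with 33, 12 and 12 reads in gSOC1-GFP against 7, 1 and 3 in untagged gSOC1. The centre of its region lay in the 5′ UTR of transcript AT1G27370.1 and in an intron of AT1G27370.2 and AT1G27370.4. PIL6, the factor also named PIF5, passed in replicate 1 alone too, at a mean log2 enrichment of 0.53 ± 1.09, which was -0.097 without that replicate. GID1C, a gibberellin receptor gene, passed in replicate 1 with 24 gSOC1-GFP reads against 4 untagged reads, while in replicates 2 and 3 its log2 enrichment was -1.94 and -1.62.

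Of the 173 genes on 10 lists of flowering, light, hormone, cold and meristem genes, 19 (11%) had a 5′ UTR region each, beside 1610 of the 27444 nuclear protein-coding genes in the RefSeq table (5.87%). Of the 19 regions 1 (5.26%), that of PIF4, was called, beside 1.05% of all 5′ UTR regions; neither difference was tested. Photoperiod, light and clock genes had 3 of 31, at mean log2 enrichments from 0.53 to 3.59, and flowering repressors had 3 of 19, from -0.75 to 1.54. AT1G69570, first meant for the photoperiod list and left off it because the RefSeq table gives it no symbol, also had a 5′ UTR region, with 27, 14 and 21 reads in gSOC1-GFP against 7, 2 and 3 in untagged gSOC1 (0.78 ± 0.24); it passed the FDR in 0 replicates. Of 15 floral organ identity MADS genes 1 had a region (1.30), and of the 13 floral integrators and SOC1 relatives 0 had one. Gibberellin genes had 2 of 21 (-0.68 and -0.36), auxin genes 4 of 15 (-0.80 to 0.22), abscisic acid genes 3 of 15 (-0.60 to 0.13), cold response genes 1 of 14 (0.60), shoot meristem genes 1 of 20 (0.95) and SPL genes 1 of 10 (0.85). The median of the mean log2 enrichment over all 5′ UTR regions was 0.21, and 0.29 over all other regions.

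The remaining called regions with a symbol lay at CYP706A5, IBR3, SWEET2, KCS13 and SRF3. CYP706A5, a cytochrome P450 gene, had a region at chr4:7312384-7312721 with 278, 80 and 94 reads in gSOC1-GFP against 11, 3 and 4 in untagged gSOC1, a mean log2 enrichment of 2.89 ± 0.75 (SD, n = 3). All 3 gSOC1-GFP libraries were above the controls, and edgeR with the block gave an adjusted p of 1.03e-05. IBR3, which acts in the conversion of indole-3-butyric acid to auxin, held 73, 24 and 36 reads in gSOC1-GFP against 8, 0 and 2 in untagged gSOC1. Its mean of 3.13 ± 1.77 was 2.11 without replicate 2, where the untagged count was 0 and the enrichment at least 1.79-fold (edgeR with the block, adjusted p = 0.0139).

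SWEET2, a sugar transporter of the vacuolar membrane, had 81, 19 and 50 reads in gSOC1-GFP against 13, 1 and 0 in untagged gSOC1. Its log2 enrichments of 1.78, 1.93 and 5.70 differed by the zero in replicate 3, without which the mean was 1.86 in place of 3.14 (edgeR with the block, adjusted p = 0.0158). KCS13, a 3-ketoacyl-CoA synthase also known as HIC, had 95, 28 and 36 reads in gSOC1-GFP against 10, 4 and 5 in untagged gSOC1. Its authors' FDR in replicates 2 and 3, 0.0486 and 0.0443, lay just inside the threshold, and its mean log2 enrichment of 1.24 ± 0.96 was 0.68 without replicate 1 (edgeR with the block, adjusted p = 0.432).

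SRF3, a receptor kinase gene of the STRUBBELIG family, was the other called gene with a symbol. Its region chr4:1494860-1495108 had 67, 24 and 32 reads in gSOC1-GFP against 4, 1 and 2 in untagged gSOC1, a mean log2 enrichment of 2.33 ± 0.56 (SD, n = 3; edgeR with the block, adjusted p = 0.012). The 3 pairs were close, at 2.92, 2.26 and 1.80.

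The other 6 called regions lay in genes without a symbol. AT1G22460 had 320, 154 and 102 reads in gSOC1-GFP against 10, 1 and 6 in untagged gSOC1, at 3.65 ± 1.52 on the log2 scale. The mean was 4.49 without replicate 3 and 3.02 without replicate 2. For AT1G22460 edgeR gave an adjusted p of 5.01e-07 with the block and 0.135 without it. AT5G40540 had 54, 16 and 18 reads in gSOC1-GFP against 7, 0 and 0 in untagged gSOC1, which put pairs 2 and 3 at least 1.19-fold and at least 1.41-fold higher in gSOC1-GFP with the floor of 3 reads. Its mean of 3.63 therefore depends on the prior count, and edgeR with the block gave a log2 fold change of 2.74 (adjusted p = 0.0571).

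AT4G22990 was uneven across pairs, with log2 enrichments of 3.27, 0.63 and 2.11 and a mean of 1.37 without replicate 1. AT3G04960, with 40, 33 and 35 reads in gSOC1-GFP against 10, 2 and 2 in untagged gSOC1, and AT2G24390, with 104, 44 and 52 against 26, 4 and 4, had small and even enrichments of 1.63 ± 0.42 and 1.35 ± 0.19. AT3G13190 held 143, 44 and 42 reads in gSOC1-GFP against 71, 4 and 3 in untagged gSOC1, and its 71 control reads left pair 1 at 0.26. Of these 4, edgeR with the block called AT4G22990 (adjusted p = 0.0103).

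With the replicate block, edgeR called 14 of the 1623 regions, each higher in gSOC1-GFP, which is 0.863% beside 0.878% of all regions. Of the 14, 11 were among the 17 called by the authors' FDR. The 3 others were AT5G45500, AT5G41380 and IDD11, a zinc finger gene of the indeterminate domain family, and the last 2 are named here after their values were seen. Each had passed the FDR in 2 replicates. IDD11 held 98, 18 and 43 reads in gSOC1-GFP against 7, 1 and 1 in untagged gSOC1, a mean log2 enrichment of 2.59 ± 0.64 (SD, n = 3), and it missed the FDR in replicate 2 at 0.058. AT5G45500 held 55, 24 and 20 reads in gSOC1-GFP against 1, 0 and 2 in untagged gSOC1 and had the highest mean among uncalled regions of 20 or more reads (3.37 ± 2.04). Its untagged count of 0 put pair 2 at least 1.79-fold higher in gSOC1-GFP, and the mean was 2.47 without replicate 2 and 4.48 without replicate 3. The edgeR adjusted p was 0.00467 with the block and 0.15 without it at AT5G45500, and 0.0024 and 0.382 at IDD11.

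**Figure D4:**
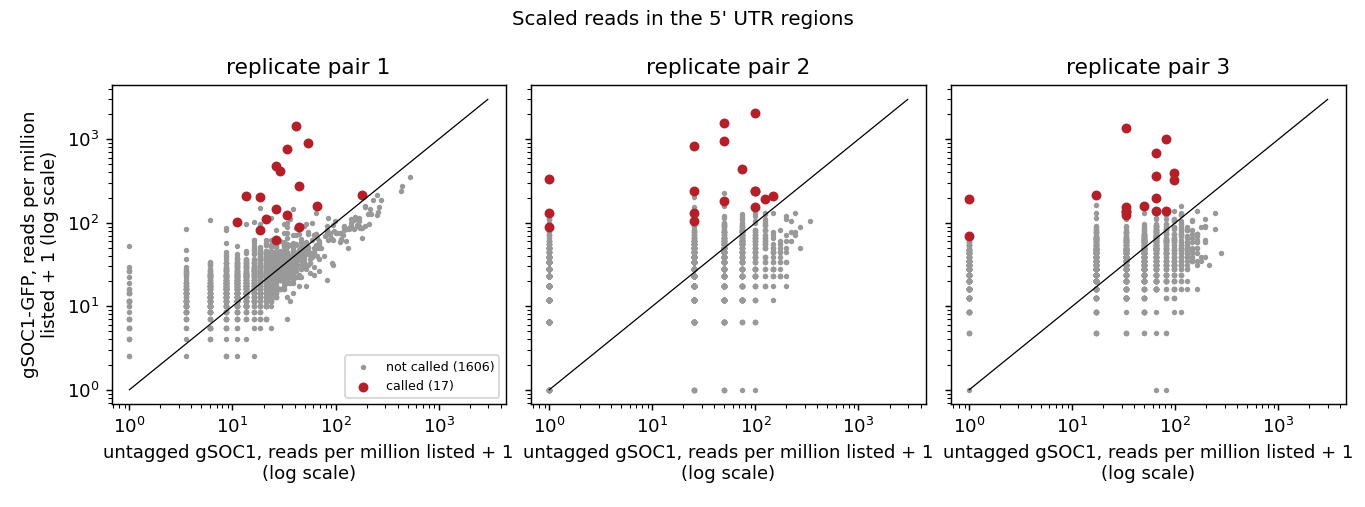
Reads scaled to the listed total of each library, plus 1, in gSOC1-GFP (vertical) against untagged gSOC1 (horizontal), both on log scales, for the 1623 5′ UTR regions in the 3 replicate pairs; the line marks equal values. The 17 called regions (red) lie above the line in each pair, and the columns of points in pairs 2 and 3 are untagged counts of 0, 1, 2 and so on.

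A log2 enrichment of 1 or more in all 3 pairs, that is 2-fold, was reached by 36 5′ UTR regions, 2.22% beside 3.00% of all regions. Of the 17 called regions, 13 were among them. The other 23 were shallow, with a median of 28 reads over the 6 libraries, and 20 of them had an untagged count of 0 in at least 1 library. NAC096, a NAC-domain transcription factor gene, had 24, 6 and 10 reads in gSOC1-GFP against 1, 0 and 0 in untagged gSOC1, at 3.15 ± 0.42 on the log2 scale and 0.94 with a prior count of 10 (edgeR with the block, adjusted p = 0.19). NADP-ME2, a malic enzyme gene, had 10, 6 and 9 reads in gSOC1-GFP against 1, 0 and 0 in untagged gSOC1, and 2.74 became 0.75 in the same way. With the untagged counts of 0 set to the floor of 3 reads, NAC096 was at least 0.447-fold and 0.786-fold enriched in pairs 2 and 3. NADP-ME2 was at least 0.447-fold and 0.707-fold enriched there. These bounds lie below 1-fold, so they show no enrichment at either gene. NAC096 passed the authors' FDR in replicate 1 alone, and NADP-ME2 in 0 replicates.

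Of the 5′ UTR regions 0, and of all listed regions 0, were 2-fold or more lower in gSOC1-GFP in all 3 pairs. Of the regions with 100 or more reads, the lowest means were at SRD2, a gene for small nuclear RNA transcription (-1.01 ± 1.35), at SAP18, a histone deacetylase complex gene (-0.98 ± 1.24), and at BIN4, of the topoisomerase VI complex (-0.98 ± 1.45; SD, n = 3 each). In each the replicate 2 pair was lowest, with 6, 2 and 3 gSOC1-GFP reads against 8, 3 and 5 untagged reads at SRD2, SAP18 and BIN4. Without replicate 2 the means were -0.29, -0.28 and -0.15.

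Depth divided both the class and the other regions. Regions with 100 or more reads over the 6 libraries made up 6.72% of 5′ UTR regions and 19.2% of other regions. They held 16 of the 17 called 5′ UTR regions and 242 of the 253 called other regions. In this stratum 14.7% of the 109 5′ UTR regions and 5.62% of the 4309 other regions were called, a difference that was not tested and in which the gSOC1-GFP reads that set the call also set the stratum. Between 50 and 100 reads 1 of 390 5′ UTR regions (0.256%) was called, beside 11 of 5045 other regions (0.218%). Between 20 and 50 reads it was 0 of 998 beside 0 of 8850, and below 20 reads 0 of 126 beside 0 of 4205.

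The called 5′ UTRs were the single called regions found for their genes. Elsewhere in the gene, or up to 3 kb upstream of it, 10 of the 17 genes had 12 further listed regions, of which 0 passed the FDR in all 3 replicates. The strand of IBR3 and SWEET2 was not resolved, so upstream regions of these genes may have been missed. Their mean log2 enrichment ran from -0.53, at 1957 bp upstream of VEL1, to 2.54, at 2152 bp upstream of AT3G21330, where 9, 9 and 8 gSOC1-GFP reads stood against 3, 0 and 0 untagged reads. At AT5G58900 the second region, 1289 bp upstream, had 63, 27 and 36 reads in gSOC1-GFP against 7, 7 and 6 in untagged gSOC1, a log2 enrichment of 0.83 ± 1.24 (SD, n = 3). Another gene lay within 500 bp of the centre at 4 of the 17 called regions and at 428 (26.4%) of all 5′ UTR regions. The 4 were AT5G06130, AT2G24390, AT3G04960 and AT3G13190, with the neighbour 121, 4, 233 and 216 bp away, so a region there cannot be given to one gene by position alone.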

How the data were processed

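The deposited data were a single region table and its column definitions. Its deposited read counts are raw whole numbers, and listed totals served as depth, since total library depth was not used here. The authors' p-value columns are Benjamini-Hochberg FDRs per replicate. Their test, the aligner and the region caller were not given in the sources used here. A log2 rank product of the authors was not used, and the authors' rank score only placed regions in the list. Coordinates are in TAIR10, as the submitters' processing notes name it. Starts are as deposited (whether from 0 or 1 is not given), and ends were computed from start and length. Per the labels' protocols, fragments of 150 to 400 bp were isolated and amplified for 18 cycles.

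edgeR 4.0.16 in R 4.3.3 (quasi-likelihood test, listed totals as library sizes, no replicate block, Benjamini-Hochberg adjustment over 24032 regions, threshold 0.05) was fitted to all regions and tested on simulated data; DESeq2 1.42.0 was an alternative. Replicate numbers come from the titles and the authors give 1 FDR for each number. Deviations from group means correlated at 0.543, 0.142 and 0.134 for same-numbered libraries, above the bound of 0.1. Differently numbered libraries of replicates 2 and 3 gave 0.107 and 0.128, also above that bound. The check thus set replicate 1 apart and cannot decide how replicates 2 and 3 pair. The block is given beside the results whose call it changes. Regions named are those called, list genes that passed the FDR in 1 replicate or 2-fold in all pairs, the 3 highest uncalled with 20 or more reads and the 3 lowest with 100 or more. Members, lists and rules were chosen with earlier results of these data known. Symbols came from the RefSeq gene table, which held 1611 of the 1617 genes (99.6%). No genome was used, so no sequence is given. Floors of 3 counts cover counting error only.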

Additional observations from a re-analysis of the deposited data

How the results depend on the processing

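The share of reads in 5′ UTR regions was 0.122 percentage points higher in gSOC1-GFP. It ranged from -0.940 to 0.885 when each library was left out, changing sign without gSOC1-GFP replicate 2 (-0.0804), gSOC1-GFP replicate 3 (-0.263) or untagged replicate 1 (-0.940). With the replicate block its exact sign-flip p was 1. Averaged over pairs, the median log2 enrichment of 5′ UTR regions stayed above 0 in every setting run. It ran from 0.036 (without replicate 1) to 0.24 (without replicate 3), and was 0.21 with TMM sizes. Its difference from other regions ranged from -0.11 to 0.019 when a replicate was left out and turned positive without replicate 3 (0.019). TMM sizes moved the median of all regions by -0.36, 0.32 and 0.26 in pairs 1, 2 and 3. The 5′ UTR medians in these pairs became 0.0063, 0.46 and 0.17, in place of 0.34, 0.14 and -0.068, so the value of each pair depended on the scaling.

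Against 17 called regions, an FDR of 0.01 left 11 and an FDR of 0.1 gave 21. Asking for any pair of replicates in place of all 3 gave 19 to 30, 30 of them without replicate 3. Counts over all regions at these settings are not given here. The number edgeR called was 1 (18 of all regions). It was 14 with the replicate block (211 of all regions), 7 with the block and TMM sizes (91), and 0 with TMM sizes alone (0). With 20 or more reads it was 3 (34 of 19701 regions). DESeq2 called 6 without and 7 with the block (94 and 124 of all regions), and gave 213 and 54 of the 1623 regions an adjusted p. Without single libraries or replicates edgeR called 0 to 4 (0 to 70 of all regions). Where it called 0, 24 to 81 had an unadjusted p under 0.05 (452 to 1387 of all regions). With the block and a replicate left out it called 4 to 16 (50 to 215 of all regions). With TMM sizes alone 39 regions had an unadjusted p under 0.05 (762 of all regions). Regions 2-fold enriched in all pairs numbered 36 (720 of all regions). They numbered 12 with a prior count of 10 and 69 to 121 over 2 pairs, for which counts over all regions are not given.

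Of the 27 named regions, 9 moved by more than their SD with a prior count of 10, all toward 0. PIL6 changed sign without replicate 1 (-0.097) and ranged up to 0.88 without another. The cause of these changes was not tested. The low counts of untagged replicates 2 and 3 limit what single regions can show.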
